A study of Mus musculus with 48 samples.

Results

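Of 114043 merged ATAC-seq peaks, 1137 (0.997%) lay in isolation: their start was more than 50 kb from the start of every other merged peak on the chromosome. The rule uses position on mouse build mm9 alone and no measured change, but it was set with earlier results of these data known. How the merged list itself was filtered is not given. In all, 1302 peaks met the distance, and 165 of them were left out because they lay within 1 Mb of a gap of at least 2 Mb without merged peaks. There were 60 such gaps with a total length of 598 Mb, and what they hold was not tested. The remaining 112906 peaks, called the other peaks here, are the comparison.

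ATAC-seq marks accessible DNA, because the Tn5 transposase inserts sequencing adapters where nucleosomes leave room. Accessible sites cluster around active genes, as promoters and as enhancers that act on them from a distance. In gene-poor stretches the chromatin is mostly compact, and the open sites found there are typically distal enhancers, sites bound by the insulator protein CTCF, or promoters of genes with no near neighbour.

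The tumors model small cell lung cancer, a neuroendocrine cancer that often spreads to the liver, in mice. All libraries carried the genotype Trp53-/-;Rb1-/-;p130-/-;R26mG, in which the tumor suppressor genes p53, Rb1 and the Rb family member p130 are deleted and the R26 locus holds a fluorescent reporter. Adenovirus brought Cre recombinase to the cells. In Ad-CMV-Cre the viral CMV promoter, active in many cell types, drives it, and in Ad-CGRP-Cre the promoter of the neuroendocrine peptide CGRP. The series asks how the cell type of origin shapes the tumors.

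The Ad-CMV-Cre comparison set 8 libraries with amplified Nfib, the gene of transcription factor nuclear factor I/B, against 7 libraries without amplification. The amplified group held 2 lung tumors, 5 liver metastases and 1 lymph node metastasis, and the not amplified group held 7 lung tumors, so amplification and tumor site cannot be told apart in it. The Ad-CGRP-Cre comparison set 7 liver metastases against 11 lung tumors, of which 1 was labelled Nfib-amplified. Preparation batches 1 and 3 each held both CMV groups, while the CGRP metastases were all of batch 2 and the CGRP lung tumors of batches 2 (7 libraries) and 3 (4 libraries). The 15 low-enrichment CMV libraries among the 48 entered no comparison. Ages are not used here, and whether libraries came from separate mice was not resolved, so the p-values measure the spread between these libraries. All changes are fitted values from the authors' deposited tables, with no value per library, so depth is unknown and the spread within a group is seen only through the standard error (SE). In bulk tissue, a larger share of cells with an open site and a wider opening per cell cannot be told apart.

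Isolated peaks were weak. Their mean normalised count, which the authors averaged over libraries, had a median of 11.3 (quartiles 5.79 and 23.6), against 21.3 (11.1 and 46.7) for other peaks. The lowest decile of mean count over all tested peaks held 27.2% of the isolated peaks (308), against 9.83% of other peaks. The highest decile still held 81 isolated peaks (7.16% of members), and the members ranged from 0.0288 to 804. The median peak score, read as −log10 of the q-value, was 20.4 for isolated peaks and 28.2 for other peaks. Because shares of changed peaks move with the mean count, each share below is set beside that of other peaks weighted to the same deciles of mean count, called other peaks of like mean count.

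Isolated peaks were often not alone among the unfiltered summits from which the merged peaks were drawn. By the rule itself, the nearest merged peak was far, a median of 68.0 kb away for isolated peaks and 4.06 kb for other peaks, and 239 isolated peaks had none within 100 kb and 53 none within 200 kb. Yet a median of 6 summits that belong to no merged peak (quartiles 2 and 10, highest 74) lay within 50 kb of an isolated peak, against 12 around other peaks. Only 99 isolated peaks (8.71%) had none, against 0.451% of other peaks. These counts add up 3 lists, so a site called in more than 1 list was counted more than once. The nearest summit in no merged peak was within 10 kb for 696 isolated peaks (61.2%), and within 1 kb for 299 of them. For 267 isolated peaks (23.5%) a summit of the same list within 50 kb scored at least as high as the peak itself. These surrounding summits were mostly weak: at or above the median score of each list, the median number around an isolated peak was 0, and 56.6% had none.

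In CMV tumors, isolated chromatin opened about as often as other chromatin of the same strength. Of 1131 isolated peaks with an adjusted p, 361 (31.9%) were higher in Nfib-amplified than in not amplified libraries at the authors' adjusted p under 0.05, and 97 (8.58%) were lower. Over all tested peaks 34.3% were raised and 12.2% were lowered. Other peaks of like mean count were raised in 31.7% and lowered in 8.88%, so the isolated peaks' shares were near the background, above it by 0.26 percentage points for raised and under it by 0.30 for lowered. The remaining 6 members had no p.

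Among called peaks, isolated ones had larger changes than other peaks, and larger errors. The median log2 fold change was 2.77 for raised isolated peaks, with a median SE of 0.90, against 2.44 and 0.74 for raised other peaks. It was -2.22 for lowered isolated peaks, with a median SE of 0.66, against -1.54 and 0.46 for lowered other peaks. A peak with a larger SE needs a larger change to be called, and these medians are over called peaks only. Over all members the median log2 fold change was 0.94 for isolated and 0.60 for other peaks, but at like mean count the means were close, at 1.00 and 0.91. The share with a log2 fold change over 2 was 28.1%, against 24.9% for other peaks of like mean count.

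A second test in the deposited columns, read as one against an absolute log2 fold change of 0.5, raised 189 isolated peaks (16.7%) and lowered 46 (4.07%). It raised 19.0% and lowered 4.64% of all tested peaks. The median peak of the whole table had a log2 fold change of 0.60. Relative to that median, 18.0% of isolated peaks were raised and 15.5% lowered, against 17.9% and 18.5% of other peaks of like mean count.

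Within deciles of mean count the isolated peaks went above and below the others. In decile 1, the weakest, 33 of 308 isolated peaks (10.7%) were raised, against 20.6% of other peaks, and their median mean count was itself lower there (3.29 against 4.44). In decile 8, 27 of 49 (55.1%) were raised, against 36.2%, with a median log2 fold change of 1.43 against 0.35. The share raised was higher for isolated peaks in 6 of 10 deciles, the share lowered in 3 of 10 and the median log2 fold change in 8 of 10. Where the mean count reached 20, the share raised exceeded that of other peaks of like mean count by 4.58 percentage points. In decile 9 the order was again the other way, with 23.6% of isolated peaks raised, against 31.3%.

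**Figure D1:**
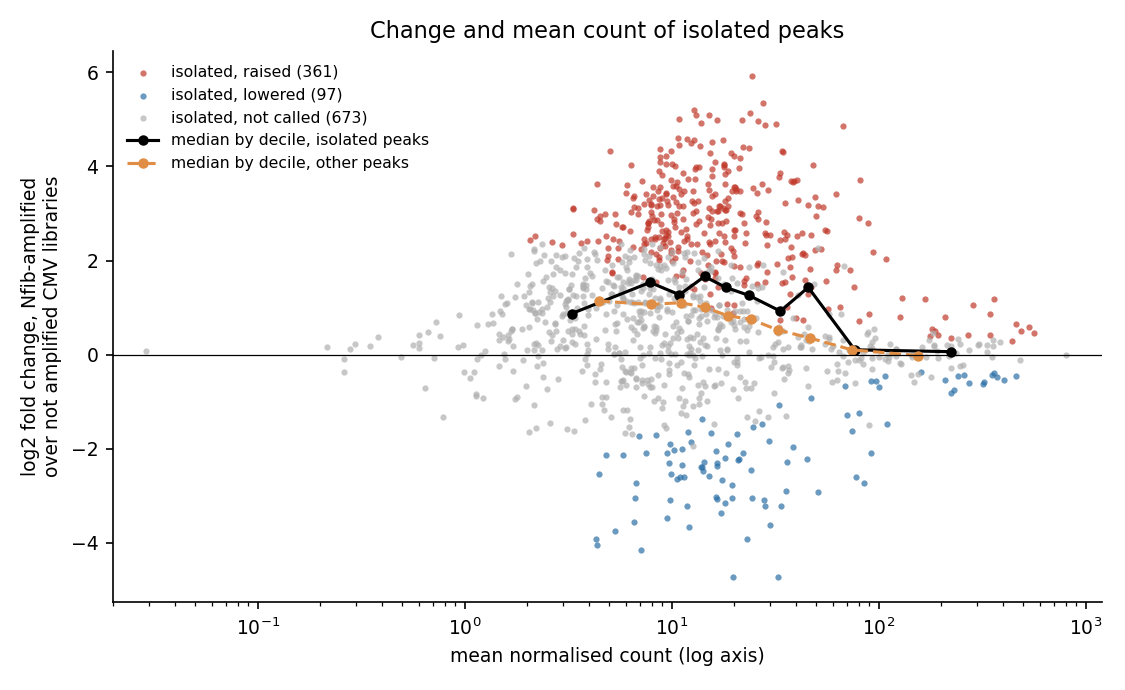
CMV log2 fold change (Nfib-amplified over not amplified) of each isolated peak against its mean normalised count (log axis), coloured by the authors' adjusted p under 0.05, with medians by decile of mean count for isolated peaks and other peaks. Large changes lie at middling mean counts, the strongest peaks lie near 0, and the isolated peaks' median is the higher in 8 of 10 deciles.

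The share raised followed the distance to the nearest merged peak up and then down. Among peaks under 1 kb from a neighbour 30.4% were raised and 14.2% lowered, and at 20 to 50 kb 39.3% were raised and 7.62% lowered. At 50 to 100 kb, which holds 894 isolated peaks, 35.0% were raised, at 100 to 200 kb 21.1% of 185, and over 200 kb 17.3% of 52. The median mean count fell along the same bins, to 7.31 over 200 kb, against 31.9 under 1 kb, and the median SE was 0.96 over 200 kb, against 0.44 under 1 kb. Their part in the trend was not tested. In the lowest tertile of mean count 33.7% were raised at 20 to 50 kb, 28.9% at 50 to 100 kb and 17.6% at 100 to 200 kb. In the highest tertile 37.3% were raised at 20 to 50 kb, 37.9% at 50 to 100 kb and 1 of 18 peaks (5.56%) at 100 to 200 kb. In the middle tertile 50.2% were raised at 20 to 50 kb, 45.9% at 50 to 100 kb and 41.7% of 36 peaks at 100 to 200 kb.

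**Figure D2:**
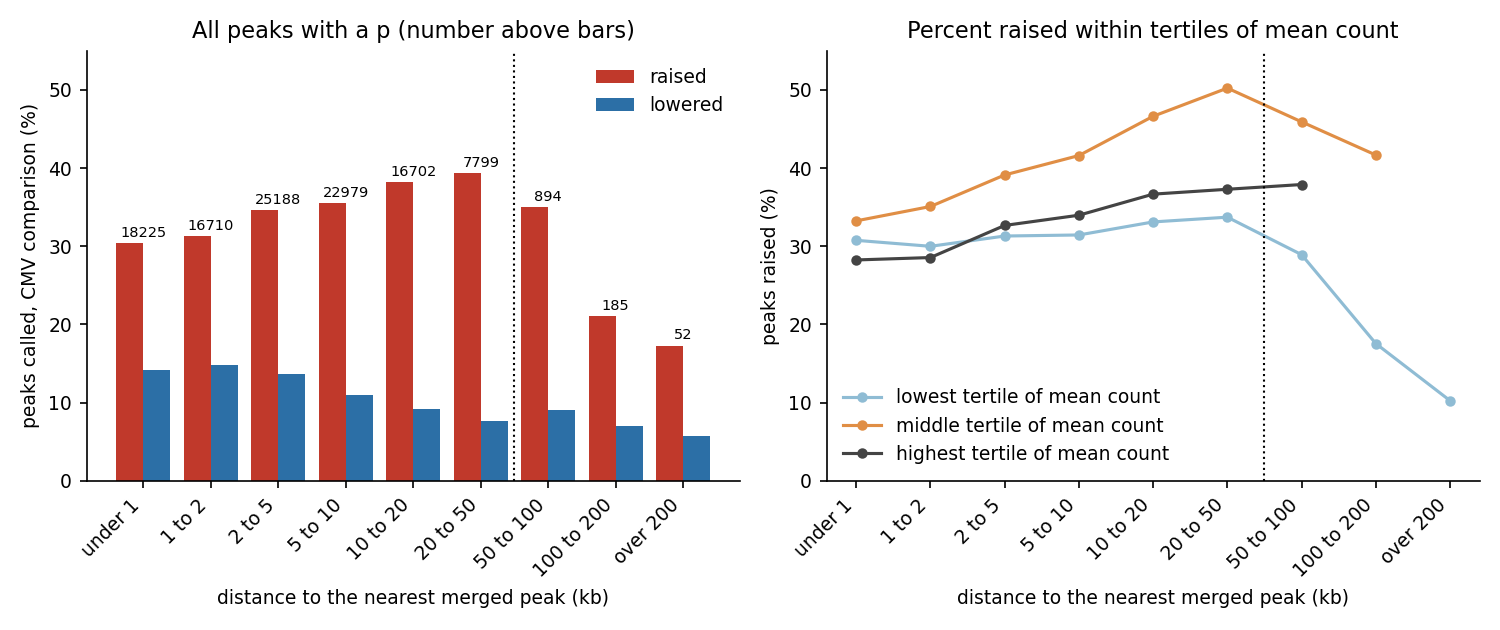
Percent of peaks called in the CMV comparison by distance to the nearest merged peak, for all peaks (left, raised and lowered) and within tertiles of mean count (right, raised; bins of under 20 peaks are not drawn), with the dotted line at 50 kb. The share raised is highest at 20 to 50 kb (39.3%) and falls to 17.3% over 200 kb, while within the middle tertile it stays above 40% in the bins drawn beyond 5 kb.

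On both sides of the threshold of 50 kb the shares were as follows. Just inside it, at 50 to 55 kb, 67 of 212 tested peaks were raised (31.6%), 24 lowered (11.3%) and the median log2 fold change was 0.89. Just outside it, at 45 to 50 kb, 136 of 350 were raised (38.9%), 25 lowered (7.14%) and the median was 1.16. The result moved with the threshold. Peaks over 25 kb from any other were raised 6.02 percentage points more often than other peaks of like mean count, and peaks over 100 kb 10.2 points less often (a difference of -10.2).

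Among raised members with a mean count no lower than 21.2, the median of all tested peaks, the 5 with the largest changes lay on 4 chromosomes. In the authors' deposited table, chr15:45433925-45434425 had the largest change of these, 5.93 on the log2 scale with an SE of 0.87 (adjusted p = 1.83e-09), at a mean count of 24.5. Its nearest merged peak was 71.6 kb away, and all 7 unmerged summits within 50 kb came from the CMV pool. The authors' deposited table put chr9:32987525-32988025 next at 5.34 on that scale, with an SE of 0.85 (adjusted p = 2.49e-08). The other raised sites named by the same rule were chr3:98568011-98568511, chr13:13168409-13168909 and chr3:25334768-25335268, with log2 fold changes of 5.13, 4.98 and 4.98 and SEs of 1.01, 1.01 and 0.98 in the authors' deposited table. All 5 held a summit of the CMV pool and of the mixed pool and none of the CGRP pool. In CGRP tumors the changes at these sites lay between -0.50 and 0.56, each smaller than its own SE.

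Among lowered members above the same mean count, the 5 with the largest losses held a summit of every pool. The authors' deposited table gave chr1:49494350-49494850 the largest loss of these, -4.73 on the log2 scale with an SE of 0.73 (adjusted p = 9.03e-09), at a mean count of 32.6. In the authors' deposited table chr9:114178521-114179021 had -3.92, with an SE of 0.53 (adjusted p = 8.67e-11), and chr12:117572623-117573123 had -3.62 (SE 0.69). The last pair by this rule, chr2:153881814-153882314 and chr9:119597438-119597938, had -3.21 each (SE 0.48 and 0.53) in the authors' deposited table. At chr1:49494350-49494850 the summit scored 41.0 in the CMV pool, 205 in the CGRP pool and 91.5 in the mixed pool, on scales that are not comparable between pools.

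The strongest isolated sites changed little on the deposited scale. The highest mean count was 804, at chr6:13627798-13628298, where the authors' deposited table gave a log2 fold change of 0.00 (SE 0.14). The next by mean count were chr17:79135789-79136289 (564), chr15:43308473-43308973 (534), chr2:105744481-105744981 (489) and chr8:48618677-48619177 (481). In the authors' deposited table the first 3 of these were raised in Nfib-amplified libraries by 0.45 (SE 0.13), 0.58 (SE 0.14) and 0.50 (SE 0.12), and the last had -0.12 (SE 0.14). The raised calls were smaller than the shift of the median peak, so all 3 lie under 0 when the table is centred on it. With that centring chr6:13627798-13628298 had -0.60 and chr8:48618677-48619177 had -0.72, and the chr8 site was then called lowered. Over the 81 isolated peaks of the highest decile, 20 were raised (24.7%) and 16 lowered (19.8%), against 25.3% and 24.0% of other peaks of that decile. The median absolute log2 fold change was 0.34, against 0.44 for the other peaks. Only 1 of them (1.23%) had an absolute log2 fold change over 2, against 4.52% of other peaks, although their median mean count was higher (223 against 154).

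The most remote sites were weak. The peak farthest from any other merged peak was chr13:87807562-87808062, 969 kb from the nearest one, with a mean count of 7.22. In the authors' deposited table it was raised by 3.68, with an SE of 1.06 (adjusted p = 0.00231), and it was called in the mixed pool alone. Within 50 kb of it lay 11 summits in no merged peak (2 CMV, 4 CGRP and 5 mixed), so it stood alone only in the merged list. Next came chr12:63732946-63733446 at 638 kb, raised by 2.92 (SE 1.05) in the authors' deposited table. Not called were the last 3, chr6:9770422-9770922 at 586 kb, chr11:92171409-92171909 at 540 kb and chr14:88870664-88871164 at 511 kb, with log2 fold changes of 2.17 (SE 1.00), -1.38 (SE 0.87) and -0.36 (SE 1.00) in the authors' deposited table.

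Some isolated peaks followed each other along the chromosome, which the rule favours, since the neighbour of an isolated peak has 1 distant flank by construction. The 1137 members formed 800 runs of consecutive merged peaks, of which 589 held 1 member, 134 held 2 and 77 held 3 or more, the longest with 8. The run with the most members did not move as a unit: of 8 between 84137226 and 84898524 on chromosome 13, 2 were raised. Of 7 members between 60905205 and 64654214 on chromosome 12, 1 was raised. Another run of 7 members, on chromosome 3, had 5 raised. The runs described next were picked after their values were seen.

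A run of 6 isolated peaks on chromosome 13, between 22259869 and 23084659, was mostly closed in Nfib-amplified libraries. In the authors' deposited table its first member was raised by 3.50 (SE 1.00), and the following 5 had log2 fold changes of -2.53, -3.06, -3.05, -2.61 and -3.56, with SEs between 0.84 and 1.02. All 5 were called lowered, and their mean counts lay between 4.47 and 19.6. In CGRP tumors the same 5 had log2 fold changes between -1.52 and 0.51. None of the 4 with an adjusted p was called, and 1 had none.

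Runs of opened isolated peaks lay on chromosomes 3 and 14. Between 70575044 and 71786043 on chromosome 3, 5 of 7 members were raised, with log2 fold changes of 3.00, 2.65, 2.27, 2.63 and 3.98 in the authors' deposited table. Both end members had 0.88 (SE 0.99) and 0.29 (SE 0.97) in the authors' deposited table at mean counts of 2.19 and 2.62. Between 81510149 and 84418728 on chromosome 14, 4 of 6 members were raised, with log2 fold changes of 3.29, 2.45, 3.79 and 2.80 in the authors' deposited table.

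Neighbours often shared a call despite the distance. The nearest merged peak was also raised for 167 of 360 raised isolated peaks (46.4%), against 22.7% of isolated peaks that were not called. Among other peaks, whose neighbours are much closer, it was raised for 51.0% of raised peaks and 27.7% of peaks not called. For lowered isolated peaks the nearest peak was also lowered in 26 of 97 (26.8%), against 7.47% for isolated peaks not called, and for other peaks the shares were 30.5% and 12.9%. Neighbouring peaks share their libraries and are not independent, so no test was made.

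Isolated peaks came more often from the CMV pool and less often from the CGRP pool. The authors called summits on 3 pools of libraries: a CMV pool of 19 libraries, a CGRP pool of 14 and a mixed pool of 15 (11 CMV and 4 CGRP). The pools were preparation batches 1, 2 and 3, in that order, so pool and batch cannot be told apart. A CMV summit fell within 88.9% of isolated peaks, against 84.2% of other peaks of like mean count, and the share was higher in 10 of 10 deciles. A CGRP summit fell within 56.3%, against 62.4%, and a mixed summit within 78.9%, against 78.6%. The CMV pool holds the 15 low-enrichment libraries, and the pools differ in the number of summits called (251512, 172434 and 206478), so these shares compare lists and not vectors.

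The pools in which an isolated peak was called went with its direction. Of 228 members with summits in the CMV and mixed pools but not the CGRP pool, 168 (73.7%) were raised in Nfib-amplified libraries and 0 lowered, and of other peaks of that kind 79.4% were raised. Of 208 members called in the CMV pool alone, 35 (16.8%) were raised and 0 lowered, at a median mean count of 2.66, and of other peaks of that kind 36.0% were raised, at a median of 4.89. Of 48 tested members with summits in the CGRP and mixed pools but not the CMV pool, 24 were lowered and 1 raised, and of other peaks of that kind 36.6% were lowered. Of 558 tested members called in all 3 pools, 127 (22.8%) were raised and 68 (12.2%) lowered, against 28.0% and 14.03% of such other peaks. The pools hold the libraries that were compared, so this is a description and not separate evidence.

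Isolated peaks with more unmerged summits around them were raised more often. Of 99 members with none within 50 kb, 15.2% were raised, and of 41 members with over 20, 43.9% were raised. In between, the share was 26.8% with 1 to 2 summits, 30.9% with 3 to 5, 34.0% with 6 to 10 and 39.8% with 11 to 20. Members with none were also weaker (median mean count 7.80, against 13.9 with over 20). Among members with a mean count at or above the isolated peaks' own median, 29.7% of 111 with 0 to 2 summits were raised. The share was 39.2% of 319 with 3 to 10 summits and 51.4% of 138 with over 10. Most of the surrounding summits were from the CMV pool (4761, against 1402 from the CGRP pool and 1915 from the mixed pool). The CMV and the mixed pool both share libraries with the comparison, but 15 of the 19 libraries of the CMV pool did not enter it.

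**Figure D3:**
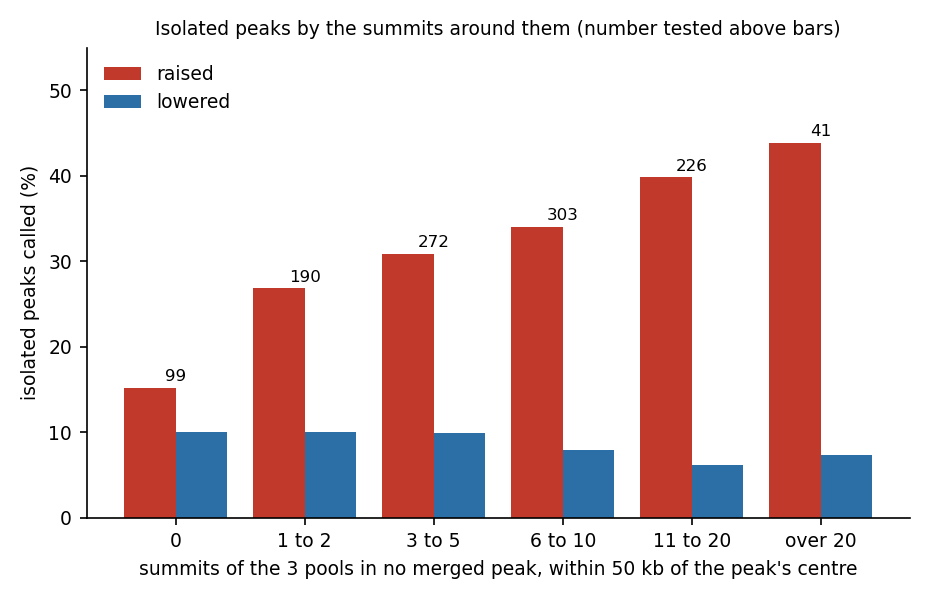
Percent of isolated peaks called raised and lowered in the CMV comparison, by the number of unmerged summits of any pool within 50 kb, with the number of tested peaks above the bars. The share raised is 15.2% with no summit around and 43.9% with over 20.

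Isolated peaks were measured with larger error. At like mean count, the mean SE of the log2 fold change was 0.775 for isolated and 0.689 for other peaks in the CMV comparison, and 0.706 against 0.588 in the CGRP comparison. The median SE was higher for isolated peaks in 9 of 10 deciles in both comparisons, with the strongest decile as the exception. Among peaks with an absolute log2 fold change under 0.5 the mean SE at like mean count was 0.600 against 0.528 in the CMV comparison and 0.600 against 0.504 in the CGRP comparison. The source of the larger SE was not tested.

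**Figure D4:**
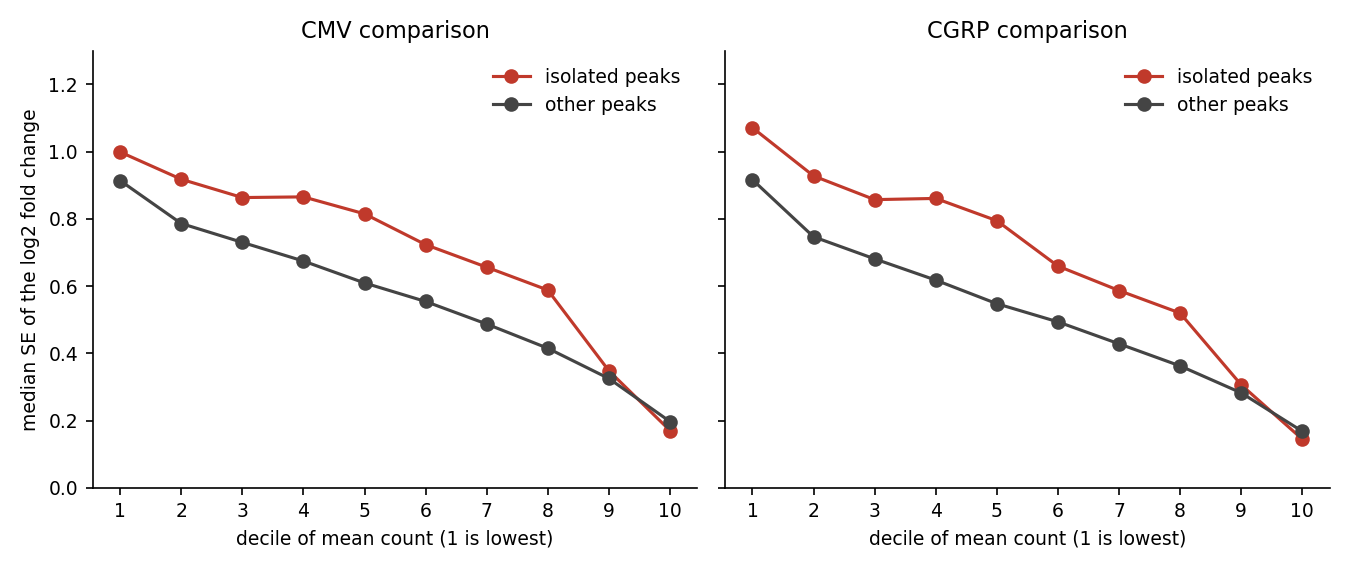
Median SE of the log2 fold change by decile of mean count, for isolated peaks and other peaks, in the CMV and the CGRP comparison. Isolated peaks have the higher median in 9 of 10 deciles of each comparison.

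In CGRP tumors almost no isolated peak differed between liver metastases and lung tumors. Of 869 members with an adjusted p, 1 was raised and 1 lowered. Over all tested peaks 0.0752% were raised and 0.779% lowered. Other peaks of like mean count were raised in 0.0704% and lowered in 0.658%. At an unadjusted p under 0.05, 101 of 1131 isolated peaks passed (8.93%), against 9.63% of other peaks. At the isolated peaks' median SE of 0.87, a log2 fold change had to reach 1.70 to pass an unadjusted 0.05, against 1.02 for other peaks, so smaller differences were mostly not detectable. The remaining 268 members had no adjusted p.

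The lowered CGRP site was chr9:114178521-114179021, named above as lowered in the CMV comparison. The authors' deposited table put its change in liver metastases at -2.39, with an SE of 0.37 (adjusted p = 1.21e-06), and it was the only isolated peak called in both comparisons. The raised site was chr14:89948003-89948503, named here although its mean count of 14.05 was under the limit for named sites. In the authors' deposited table its log2 fold change was 4.15, with an SE of 0.97 (adjusted p = 0.00620), against -0.03 (SE 0.93) in the CMV comparison.

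The CMV and CGRP changes of isolated peaks were nearly unrelated. Across 1131 isolated peaks Pearson's r of both log2 fold changes was 0.083 (Spearman's rho 0.109), against 0.155 (0.172) for other peaks. Where the mean count reached 20 it was 0.099 over 336 isolated peaks and 0.203 over other peaks. These are correlations across peaks, which are not independent, and the part of the larger error of isolated peaks in the lower values was not tested.

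The change itself differed between the comparisons for a minority. By a two-sided z test of the difference with Benjamini-Hochberg adjustment over all tested peaks, 142 isolated peaks (12.6%) were higher in the CMV comparison and 41 (3.63%) higher in the CGRP comparison. This z test adds the squared SEs of both changes, which holds only if both fits are separate. Whether they are is not known, and each peak had the same mean count in both comparisons, so a joint fit is possible. The same test called 17.8% and 5.62% of all tested peaks, and 14.6% and 3.96% of other peaks of like mean count. The balance turned round with the scaling: after each comparison was centred on its median, 5.66% of isolated peaks were higher in the CMV and 10.4% higher in the CGRP comparison. Of the 183 members that differed without centring, 169 were called the same way in the CMV comparison and 1 was called in the CGRP comparison. The comparisons set different conditions against each other, amplification in one and metastatic site in the other.

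**Figure D5:**
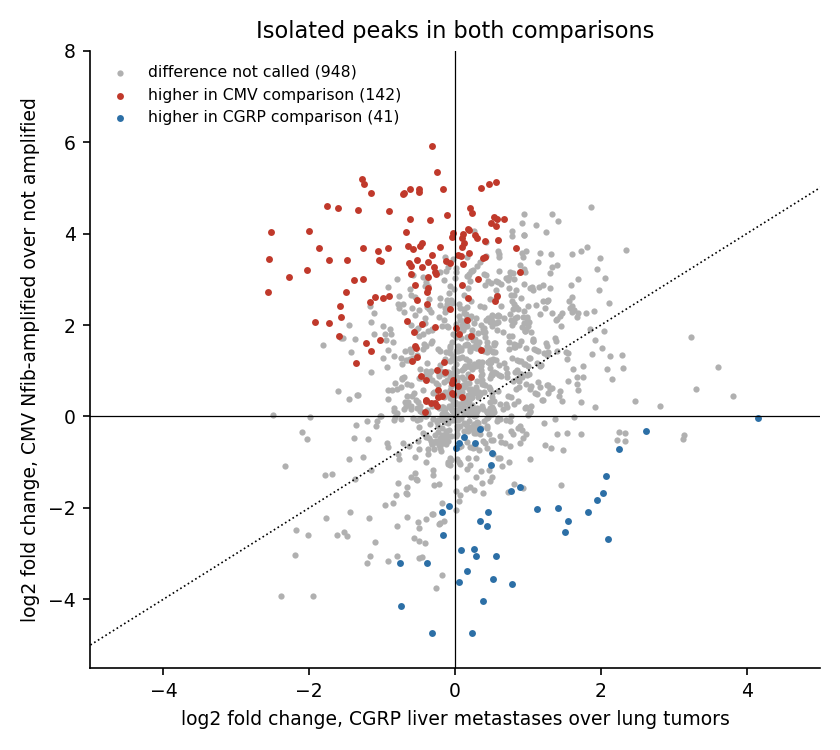
Log2 fold change of each isolated peak in the CMV comparison (Nfib-amplified over not amplified) and in the CGRP comparison (liver metastases over lung tumors), with members whose change differs between them by the z test in colour and a dotted line where both changes are equal. The points spread along the CMV axis and show little relation between the comparisons (r = 0.083).

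Isolated peaks occurred on nearly all chromosomes. Chromosome 5 held the most (104, or 1.55% of its merged peaks), and the X chromosome a larger share than any autosome (32 of 831, 3.85%). Chromosome 19 held 0, but it had only 315 merged peaks, the fewest of any autosome. Only 9 members lay on chromosome Y or on unplaced sequence. No gene was assigned to any site, because no annotation of build mm9 was used here, and for the same reason tissue labels were not checked against marker genes and no sequence is shown.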

How the data were processed

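ATAC-seq libraries were grouped by vector, Nfib amplification and tissue as the labels give them. The submitters' processing notes name the tools Bowtie2, MACS2 and DESeq2, with no version or role, and mm9 as the build. Trimming, duplicate removal, any Tn5 shift, the filter that made the merged list and the covariates of the fits: not given in the sources used here. The description of 1 of the 7 not amplified CMV libraries does not name that table among its files, and whether the fit includes it is unclear.

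The authors deposited 3 summit lists called on pooled libraries, 1 list of merged peaks of 501 bp and 2 comparison tables over the same peaks. The score of the deposited lists was read as −log10 of a q-value from its smallest value of 1.30. The mean normalised count is the authors' average signal per peak. The log2 fold changes, their SEs, the Wald score, the p-values and the adjusted p-values are the authors' deposited values. Directions rest on the names of the tables. A second set of deposited p-values was taken, by its values, to test whether the change exceeds 0.5 on the log2 scale. There are 0 columns of values per library, so no count model was fitted here.

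Distances run between peak starts on mm9, and coordinates are 1-based. Gaps were taken between consecutive merged peaks. Shares of other peaks were weighted to the isolated peaks' counts in 10 bins of mean count. A summit belonged to a peak within 250 bp of its centre. Named sites are, per comparison, the 5 raised and 5 lowered members with the largest change and a mean count no lower than 21.2, the median over tested peaks, the 5 strongest and the 5 farthest members, and those called in both. The members and rules were chosen with earlier results of these data known. The difference test was tested on simulated data only with both changes drawn independently and no shift of the median peak. It was not tested on linked fits or on a shifted median. Alternatives changed the distance, gap rule, threshold, test, centring, count minimum, chromosomes and bins. Python 3.11.15 was used with scipy 1.17.1, pandas 2.3.3, numpy 2.4.6 and matplotlib 3.10.9.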

Additional observations from a re-analysis of the deposited data

Results flagged for a closer look

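Of 21 named isolated sites, 14 changed differently in the CMV and the CGRP comparison by the z test of the difference, adjusted over all tested peaks. The z test takes both fits as separate, which is not known. Of these 21, 10 were named for their large CMV changes and 1 for its CGRP call, so the number and signs of the differences follow in large part from the naming. The comparisons set different conditions against each other (Nfib amplification, and liver against lung), so a difference shows that the 2 fitted changes are unequal and no more. Each value here is the CMV log2 fold change minus the CGRP log2 fold change.

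The difference was positive at 9 sites. It was 6.25 at chr15:45433925-45434425, 5.58 at chr9:32987525-32988025, 5.48 at chr3:25334768-25335268, 5.15 at chr13:13168409-13168909 and 4.57 at chr3:98568011-98568511. It was 4.94 at the peak farthest from any other merged peak, chr13:87807562-87808062. At 3 of the strongest isolated peaks it was small, 0.81 at chr15:43308473-43308973, 0.63 at chr17:79135789-79136289 and 0.54 at chr2:105744481-105744981. These 3 differences depend on the scaling. With each comparison centred on its median, the CMV changes were -0.025, -0.15 and -0.10, and the CGRP changes -0.25, -0.19 and -0.050, in the same order.

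The difference was negative at 5 sites. It was -4.42 at chr1:49494350-49494850, -3.67 at chr12:117572623-117573123, -2.83 at chr2:153881814-153882314 and -2.45 at chr9:119597438-119597938. At chr14:89948003-89948503, the site raised in CGRP liver metastases, it was -4.18. At chr9:114178521-114179021, lowered in both comparisons, it was -1.53 (SE 0.65, adjusted p = 0.0693 by the z test with Benjamini-Hochberg adjustment) and did not pass.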

How the results depend on the processing

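At an adjusted p under 0.01, 20.6% of isolated peaks were raised and 5.48% lowered in the CMV comparison, against 20.8% and 5.71% of other peaks of like mean count. The second deposited test gave 16.7% and 4.07%, against 16.6% and 3.36%, and centring on the median gave 18.0% and 15.5%, against 17.9% and 18.5%. With a mean count of at least 20, 14.3% were lowered, against 17.8%. At over 100 kb, 20.3% were raised. The CGRP counts of 1 raised and 1 lowered of 869 became 4 and 24 of 4711 at over 25 kb, and 5 and 6 of 869 at an adjusted p under 0.1. None was lowered at over 100 kb (0), 3 were lowered with no gap left out and 2 with centring, and 0 were raised by the second test or at a mean count of at least 20. The difference test called 5.66% higher in the CMV and 10.4% higher in the CGRP comparison after centring, and 6.75% higher in the CMV comparison at over 100 kb. With summits at or above the median score of each list, 33.6% of isolated peaks held a CGRP and 50.5% a mixed summit. The median number of summits around was then 0 for isolated and 2 for other peaks, and 56.6% of isolated peaks had none. Centring reversed the CMV log2 fold change at 4 of the strongest sites, to -0.025 (chr15:43308473-43308973), -0.15 (chr17:79135789-79136289), -0.10 (chr2:105744481-105744981) and -0.60 (chr6:13627798-13628298). Apart from the stricter or looser thresholds, which change counts by construction, the cause of these moves was not tested. The alternatives with chromosome starts counted as gaps, without Y and random sequences, with 100 bins of mean count, and with other numbers of bins for the SEs were chosen after seeing the data. No paired analysis was possible because the files hold no value per library, and no library could be left out for the same reason.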

Other observations

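At 2 of the 8 isolated peaks on unplaced or random sequence the score was high for the mean count. The highest score of all merged peaks, 9954, belonged to an isolated peak on Un_random from 5249224, whose mean count was 95.1. Another on Un_random, from 5495617, had a score of 3282 at a mean count of 43.5. The other 6 scored between 1.95 and 83.4. The peak with the highest mean count among isolated peaks, at chr6:13627798-13628298, had a score of 3418 at a mean count of 804. The scores of 9954, 3282 and 3418 come from different pools, on scales that are not comparable. In all, 20 isolated and 1030 other peaks scored over 1000.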
